A study of Zea mays with 11 samples.

Results

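The genes described here encode 8 proteins of C4 photosynthesis and of rubisco in maize, and their DNA methylation was compared between ear leaf, whole seed and endosperm. They were taken by gene identifier, as 8 of the 39475 nuclear gene models in the tables. They are pep1 (phosphoenolpyruvate carboxylase), ppdk1 (pyruvate, phosphate dikinase), me3 (NADP-malic enzyme), mdh6 (NADP-malate dehydrogenase), a carbonic anhydrase gene, the rubisco small subunit genes ssu1 and ssu2, and rca1 (rubisco activase). All samples were genomic DNA of the Mo17 inbred line from field-grown, self-pollinated plants, measured by bisulfite sequencing. The groups were whole seed at 3 and 5 days after pollination, dissected endosperm at 8 stages (days 7 and 9, days 10 and 11, days 13 and 15, days 20 and 25), and the ear leaf at 13 days, which served the study as control. Each stage was 1 library, so libraries of one tissue differ in age as well as in sample, and their spread, which the tests rest on, holds both.

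In a C4 leaf, carbonic anhydrase and phosphoenolpyruvate carboxylase fix carbon dioxide into a 4-carbon acid in mesophyll cells, malic enzyme releases it again beside rubisco in bundle sheath cells, and pyruvate, phosphate dikinase renews the acceptor. Rubisco activase keeps rubisco in its active state. These enzymes are abundant in leaf, while endosperm stores starch and protein. Plant cytosines are methylated in 3 contexts (CG, CHG and CHH, where H is A, C or T). CG methylation within the body of a gene is common in expressed genes, while methylation in all contexts marks transposons and silent chromatin.

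At 2 of the 8 genes the gene body differed between tissues, in comparisons where 1.24% to 5.42% of all genes passed per body context for seed against endosperm and 0.835% to 1.85% for leaf against endosperm. The body of the carbonic anhydrase gene was more methylated in leaf than in endosperm in all 3 contexts, with a CG level of 26.1% in leaf and 2.23% ± 1.80 (SD, n = 8) in endosperm. The body of rca1 was more methylated in whole seed than in endosperm in all 3 contexts, where CHH averaged 5.76% in seed (SD 0.530, n = 2) against an endosperm mean of 0.823% (SD 0.390, n = 8). Upstream of the carbonic anhydrase gene, CHH was also higher in whole seed than in endosperm. No other gene of the 8 passed in any of the 4 comparisons.

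A level is the percent of cytosine calls that were methylated. Each gene has 6 measures, the 3 contexts in the body and in the upstream region of unstated width. Of the 48 gene and measure pairs, 47 had at least 10 calls in every library and were tested with limma, with p-values adjusted by Benjamini and Hochberg over all genes and a threshold of 0.05. Upstream CG of ssu1, with as few as 7 calls, was not tested. The leaf is a single library and has no replicate check. Its tests assume that it would vary as the other tissues did.

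The libraries held 143230166 calls in leaf to 223198932 in 11-day endosperm. The tables hold no expression, so tissue identity could not be checked by expressed markers. Chloroplast gene bodies took 0.478% of the calls in leaf and 0.0510% to 0.292% in the other 10 libraries. Their CHH level, taken as the floor of the assay, was 0.953% and 0.827% in whole seed, 0.697% to 1.02% in endosperm and 0.669% in leaf. One endosperm library stood apart, most clearly in upstream CG. Among 3288 genes where 1 library led all others in upstream CG by over 10 percentage points, the leader was the 10-day endosperm at 38.5%, followed by the leaf at 14.6%. By the same rule in gene bodies, the 10-day endosperm led at 22.7% of 2121 genes in CG and the leaf at 24.5%. In body CHG they led at 27.9% and 22.7% of 1253 genes. In pep1, me3 and the carbonic anhydrase gene every methylated count of the gene body was even. This held for 25.0% of the 34498 gene bodies with at least 20 counts above 0, and 99.98% of the totals recovered there were even, against 50.9% in the other bodies. Intervals for these 3 bodies were therefore computed on the calls divided by 2. The 95% Wilson intervals given below describe counting error alone, because PCR copies of 1 molecule could not be told from separate molecules.

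**Figure D1:**
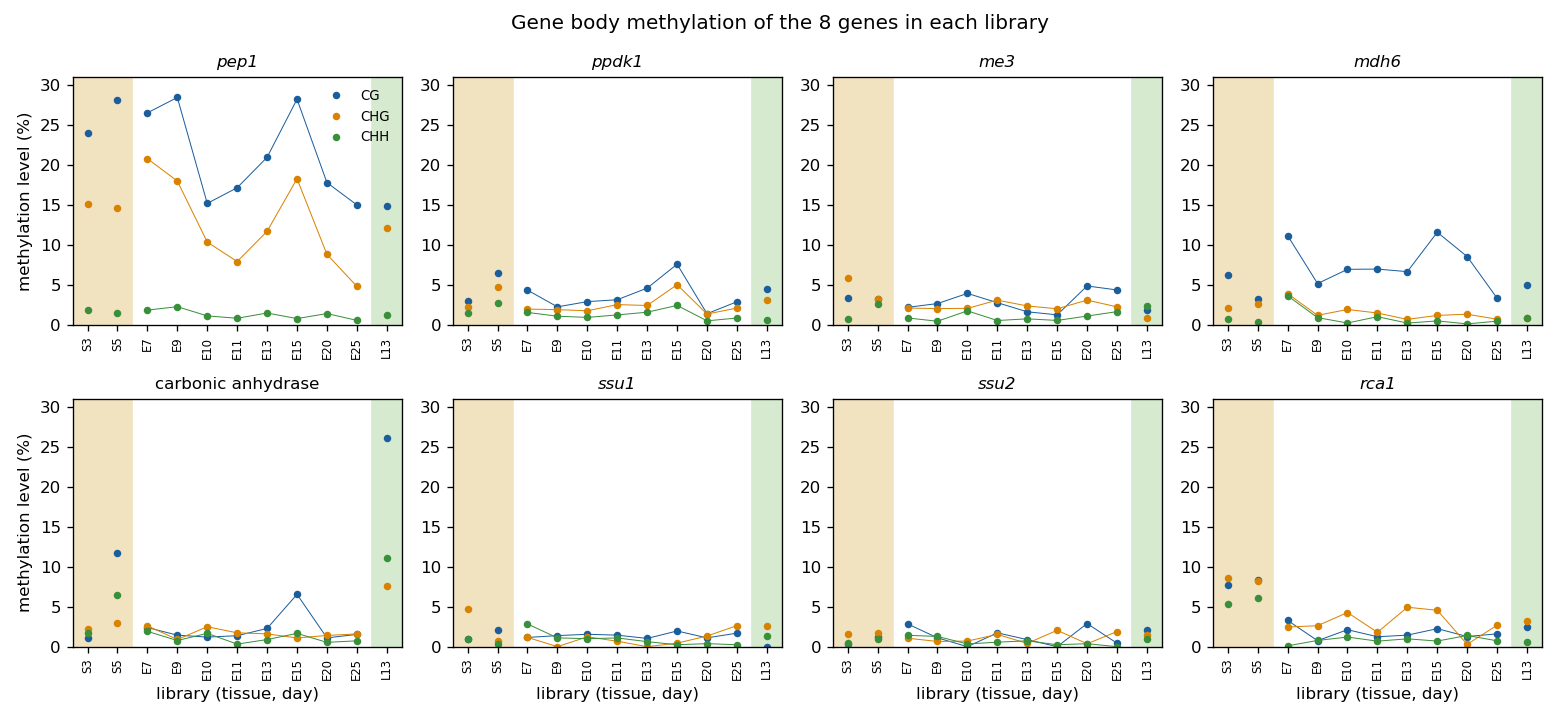
Gene body methylation level in percent (vertical axis) of the 8 genes in each of the 11 libraries (horizontal axis; S, whole seed; E, endosperm; L, leaf; the number is the day), 1 point per library and context, with lines joining the endosperm stages. The carbonic anhydrase gene reaches a CG level of 26.1% in leaf, rca1 lies above 5% in all contexts in the 2 seed libraries, and pep1 carries CG levels of 14.9% to 28.4%.

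The body of the carbonic anhydrase gene (GRMZM2G121878, chromosome 3, 215466579 to 215473931, minus strand) held the largest leaf difference among the tests that passed. This enzyme converts carbon dioxide to the bicarbonate used in the first C4 step. Its CG level was 1.09% in 3-day seed, 11.7% in 5-day seed and 26.1% in leaf (95% interval 21.2% to 31.7%). In endosperm it ran from 1.10% to 6.54% with a median of 1.49%. The leaf thus lay above all 10 other libraries, as in 18.9% of all genes. Among the 2121 genes where 1 library led all others in body CG by over 10 percentage points, the leaf led at 24.5%. The seed libraries lay on either side of the endosperm range, 3-day seed just below it and 5-day seed above it.

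CHG in this gene body was 7.58% in leaf (4.64% to 12.1%), 2.26% and 2.93% in 3- and 5-day seed, and 0.900% to 2.60% in endosperm with a median of 1.60%. CHH was 11.1% in leaf (8.71% to 14.1%), 1.69% and 6.49% in seed, and 0.320% to 1.91% in endosperm with a median of 0.830%. In each context the leaf was the highest library. In CHH the 5-day seed was next and separate from the rest, while in CHG its value was close to that of the other seed library and of 7-day endosperm. The leaf difference from endosperm was 23.9 percentage points in CG (SE 3.21, limma adjusted p = 0.00921), 5.90 in CHG (SE 0.799, limma adjusted p = 0.0214) and 10.1 in CHH (SE 1.28, limma adjusted p = 0.00313). Over all genes, 1.64%, 0.835% and 1.85% passed in this comparison in those 3 contexts. Against whole seed the leaf difference was 19.7 percentage points in CG (SE 3.71, limma adjusted p = 0.107) and 7.04 in CHH (SE 1.48, limma adjusted p = 0.0760), neither past the threshold with both seed libraries. Without the 5-day seed the leaf difference from seed was 25.0 in CG (limma adjusted p = 0.0235) and 9.44 in CHH (limma adjusted p = 0.000597). Without the 3-day seed it was 14.4 in CG (limma adjusted p = 0.172) and 4.64 in CHH (limma adjusted p = 0.0345). Each of these fits assumes that the remaining seed library varies like the endosperm libraries. Body CHH of the 5-day seed alone was above endosperm by 5.43 (limma adjusted p = 0.00176). The leaf CHH level of this body was far above the chloroplast CHH level of the same library (0.669%). Its leaf CHG level, 7.58%, was above the chloroplast CHG level there (2.41%).

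Upstream, the same gene was nearly free of methylation. Its mean upstream CG level over the 11 libraries, 1.71%, was higher than that of 0.722% of all gene models. Upstream CG in leaf was 1.0%. Upstream CHH was 4.86% in 3-day seed, 3.68% in 5-day seed, 0.680% in leaf and 0.190% to 2.70% in endosperm with a median of 1.05%. Both seed libraries lay above all endosperm libraries, as in 14.5% of all genes, and the leaf lay within the endosperm range. The seed difference from endosperm was 3.19 percentage points (SE 0.651, limma adjusted p = 0.0187). In that comparison 7.53% of all genes passed. It did not pass in the quasi-binomial model (adjusted p = 0.0680), on the arcsine scale, with library medians subtracted, with day as a covariate or without the 3-day seed (limma adjusted p from 0.0510 to 0.203).

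rca1 (GRMZM2G162200, chromosome 4, 693736 to 696087, plus strand) showed the pattern of whole seed. Its body CG level was 7.75% in 3-day seed, 8.39% in 5-day seed, 2.47% in leaf and 0.750% to 3.28% in endosperm with a median of 1.52%. CHG was 8.56% and 8.17% in seed, 3.20% in leaf and 0.290% to 4.93% in endosperm with a median of 2.65%. CHH was 5.38% (95% interval 3.95% to 7.30%) and 6.13% (4.88% to 7.67%) in seed, 0.600% (0.233% to 1.53%) in leaf and 0.10% to 1.40% in endosperm with a median of 0.755%. In every context both seed libraries were above all endosperm libraries and above the leaf, and the leaf fell within the endosperm range. Over all genes, both seed libraries were above all 8 endosperm libraries in 7.65% (CG), 15.9% (CHG) and 12.2% (CHH).

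The difference of whole seed from endosperm in the rca1 body was 6.33 percentage points in CG (SE 0.776, limma adjusted p = 0.0102), 5.42 in CHG (SE 1.15, limma adjusted p = 0.0371) and 4.93 in CHH (SE 0.345, limma adjusted p = 7.59e-05). Over all genes 1.24%, 4.2% and 5.42% passed there. The leaf minus seed difference in CHH was -5.155 percentage points (SE 0.534, limma adjusted p = 0.00201), a comparison in which 0.769% of all genes passed and which shares the seed libraries with the one before. It did not pass in the quasi-binomial model (adjusted p = 0.191) or on the arcsine scale (limma adjusted p = 0.155). The CHH difference from endosperm was past the threshold under every alternative run. In CG and CHG it did not pass when either seed library was left out (limma adjusted p from 0.0610 to 0.267) or with day as a covariate (limma adjusted p = 0.104 and 0.291). The differences in those fits were 6.0 to 6.65 percentage points in CG and 4.80 to 5.61 in CHG. CG also missed the threshold with library medians subtracted, at 3.93 percentage points (limma adjusted p = 0.0542), and CHG on the arcsine scale (limma adjusted p = 0.0877) and without the 9-, 11- or 25-day endosperm (limma adjusted p from 0.0532 to 0.0660). Chloroplast gene bodies were also higher in seed in CHG, at 8.54% and 6.35% against 2.10% to 2.72% in endosperm, while their CHH level in seed was within the endosperm range, and the part of this in the rca1 values was not tested. Whole seed was younger than every endosperm sample and holds maternal tissue and embryo besides endosperm, so that age, a change in level and a change in cell types cannot be told apart.

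The tandem neighbour of rca1, the activase gene rca3 (GRMZM2G162282), ends 597 bases upstream of it on the same strand. Its body was not like that of rca1. The CHH level of rca3 was 1.18% and 0.450% in seed and 0.420% to 1.78% in endosperm, a difference of -0.18 percentage points (SE 0.406, limma adjusted p = 0.890). An upstream window wider than 597 bases would hold part of rca3. In that upstream region of rca1, CG was 26.1% and 18.2% in seed, 24.8% in leaf and 15.1% to 28.6% in endosperm, so that the tissues overlapped. Upstream CHH of rca1 was 6.87% in leaf, 3.29% in both seed libraries and 1.85% to 5.72% in endosperm, with a leaf difference from endosperm of 3.72 percentage points (SE 1.32, limma adjusted p = 0.251).

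**Figure D2:**
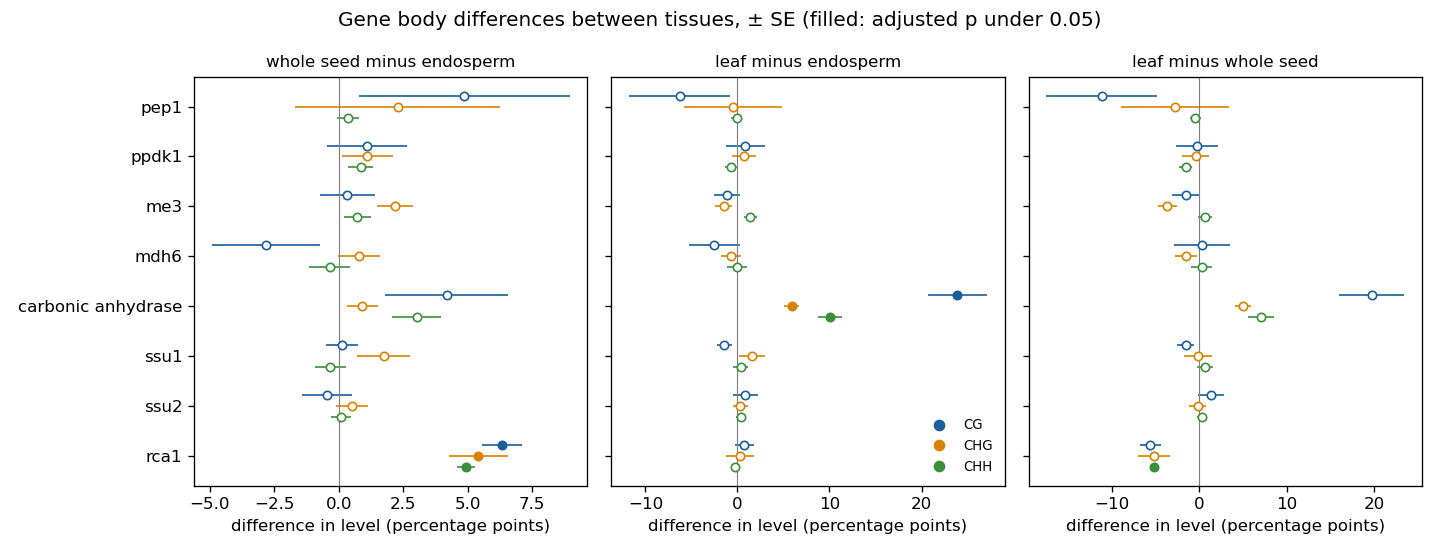
Difference in gene body level in percentage points (horizontal axis) with its SE, for each gene (vertical axis) and context, in 3 tissue comparisons with their own scales; filled points have a limma adjusted p under 0.05. The filled points are rca1 in all 3 contexts for whole seed against endosperm, the carbonic anhydrase gene in all 3 contexts for leaf against endosperm, and CHH of rca1 for leaf against whole seed.

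pep1 (GRMZM2G083841, chromosome 9, 61296279 to 61301686, plus strand), the carboxylase that makes the 4-carbon acid, was the one gene of the 8 with a substantial CG level in its body in every library. The level was 24.0% in 3-day seed, 28.1% in 5-day seed, 14.9% in leaf and 15.0% to 28.4% in endosperm with a median of 19.4%. The leaf was the lowest library, as in 6.92% of all genes, but by only a small margin below 25-day endosperm (15.0%). CHG was 15.1% and 14.6% in seed, 12.1% in leaf and 4.83% to 20.8% in endosperm. Its mean CG level over the libraries, 21.5%, was above that of 54.7% of gene models, and its CHG level, 13.0%, above that of 63.6%. CHH stayed between 0.580% and 2.29%. CG and CHG were high at days 7, 9 and 15 (26.5%, 28.4% and 28.2% in CG) and low at days 10, 20 and 25 (15.2%, 17.8% and 15.0%), and so did not move in one direction with day. The fitted CHG change over the 18 days from day 7 to day 25 was -11.4 percentage points (SE 4.77, limma adjusted p = 0.648).

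mdh6 (GRMZM2G129513, chromosome 1, 203170067 to 203174226, minus strand) makes malate from oxaloacetate in the mesophyll chloroplast. Its body CG level was 6.19% and 3.27% in seed, 5.04% in leaf and 3.35% to 11.6% in endosperm, with the tissues overlapping. Body CHG was 0.860% in leaf and at most 3.92% elsewhere. Upstream it was heavily methylated in all tissues. Upstream CG was 69.2% and 68.8% in seed, 62.2% in leaf and 57.1% to 87.6% in endosperm, and upstream CHG was 70.5%, 74.3%, 64.7% and 64.0% to 78.6% in the same order.

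me3 (GRMZM2G085019, chromosome 3, 7275169 to 7280519, plus strand) releases the carbon dioxide in bundle sheath cells. Its body was almost unmethylated, with CG at 3.33% and 3.30% in seed, 1.82% in leaf and 1.27% to 4.88% in endosperm. Body CHG was 5.83% and 3.31% in seed, 0.900% in leaf and 2.03% to 3.11% in endosperm, so that both seed libraries were above and the leaf was below the endosperm range. Over all genes, both seed libraries were above all 8 endosperm libraries in 15.9%, and the leaf was below all 10 others in 7.6%. Neither difference of me3 from endosperm passed. It was 2.18 percentage points for seed against endosperm (SE 0.694, limma adjusted p = 0.113) and -1.49 for leaf against endosperm (SE 0.931, limma adjusted p = 0.517).

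Of all the tests of day in the 8 genes, upstream CHG of me3 had the largest fitted change. Upstream CHG in endosperm was 54.1% at day 7, 53.6% at day 9, 44.4% at day 10, 45.9% at day 11, 56.7% at day 13, 44.5% at day 15, 16.9% at day 20 and 23.6% at day 25. The 2 oldest stages were the lowest of the 11 libraries, with seed at 56.3% and 40.5% and leaf at 61.1%. The fitted change over 18 days was -36.9 percentage points (SE 8.36, limma adjusted p = 0.292), and upstream CG gave -30.0 (SE 11.6, limma adjusted p = 0.858). Over all genes the median fitted change in upstream CHG was -4.71, with 24.7% of genes above 0. In upstream CG it was 1.59, with 58.8% above 0. Upstream CHH of me3, at a mean of 7.38% over the libraries, was above that of 83.4% of gene models and the highest of the 8 genes.

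ppdk1 (GRMZM2G306345, chromosome 6, 145987055 to 145997616, minus strand) renews phosphoenolpyruvate. In its body CG was 3.05% and 6.46% in seed, 4.51% in leaf and 1.41% to 7.60% in endosperm. Upstream it was strongly methylated, with CHG at 82.3% and 78.1% in seed, 82.0% in leaf and 57.0% to 72.9% in endosperm. Seed and leaf were above every endosperm library there, and seed was so in 31.9% of all genes. The share of genes with the leaf above every endosperm library was not computed. Over all genes, the leaf was above every other library more often in upstream CHG than in any other measure. The differences from endosperm were 11.8 percentage points for seed (SE 4.01, limma adjusted p = 0.0675) and 13.6 for leaf (SE 5.37, limma adjusted p = 0.125). The seed difference was 12.1 percentage points in the quasi-binomial model (adjusted p = 0.0373) and 0.20 with library medians subtracted (limma adjusted p = 0.982). In all genes the median upstream CHG change was 8.67 for seed and 9.96 for leaf, so the ppdk1 differences stood beside a shift of most genes in the same direction.

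The rubisco small subunit genes had the lowest mean body CG and CHG levels of the 8. ssu1 (GRMZM2G098520, chromosome 4, 190051325 to 190053808, minus strand) had body CG levels of 1.0% and 2.09% in seed, 0% in leaf on 0 of about 196 calls, which allows a level of up to 1.53%, and 1.03% to 1.96% in endosperm. ssu2 (GRMZM2G113033, chromosome 2, 142794871 to 142796060, plus strand; listed as rbcS by RefSeq) had 0.380% and 1.18% in seed, 2.11% in leaf and 0% to 2.89% in endosperm. The CHH levels of these bodies, 0.240% to 2.84% in ssu1 and 0% to 1.42% in ssu2, spanned the chloroplast CHH levels of the same libraries. Genes of this family are similar to each other, and reads could be shared or lost between copies.

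Upstream, ssu1 was methylated and ssu2 mostly not, on few calls in ssu1. Upstream CHG of ssu1, on 12 to 26 calls per library, was 72.2% and 61.1% in seed, 80.8% in leaf and 4.17% to 66.7% in endosperm with a median of 33.3%. The leaf was the highest library, and seed overlapped with endosperm. Over all genes, the leaf was the highest library more often in upstream CHG than in any other measure. Its share over all 6 measures together was 18.7%. The seed difference from endosperm was 32.4 percentage points (SE 14.2, limma adjusted p = 0.124) and that of leaf 46.5 (SE 19.0, limma adjusted p = 0.134). Upstream CG of ssu2 was 10.2% and 22.1% in seed, 11.1% in leaf and 8.46% to 39.9% in endosperm with a median of 11.5%.

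**Figure D3:**
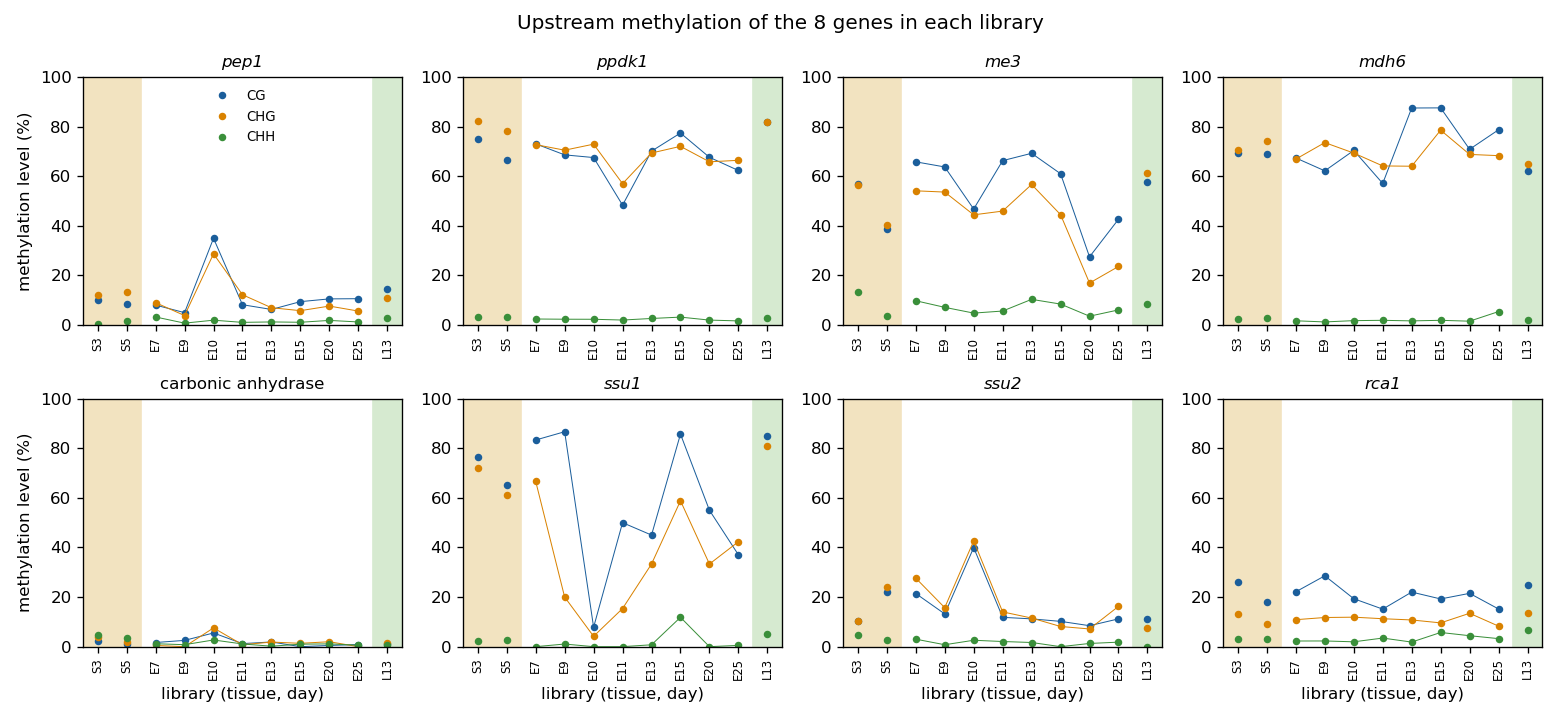
Upstream methylation level in percent (vertical axis) of the 8 genes in each of the 11 libraries (horizontal axis; S, whole seed; E, endosperm; L, leaf; the number is the day), 1 point per library and context, with lines joining the endosperm stages. CG and CHG levels are high for ppdk1 and mdh6 in every library, mixed for me3 and ssu1, and low for pep1, the carbonic anhydrase gene, ssu2 and rca1 except at day 10 of pep1 and ssu2.

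The CG levels of the 8 genes covered a wider range upstream than in their bodies. Mean upstream CG over the 11 libraries was 71.1% in mdh6, 68.9% in ppdk1, 61.6% in ssu1 and 54.2% in me3, then 21.1% in rca1, 15.5% in ssu2, 11.5% in pep1 and 1.71% in the carbonic anhydrase gene. Each neighbouring pair in this order overlapped in the range of its libraries, most narrowly me3 (27.5% to 69.2%) with rca1 (15.1% to 28.6%) and pep1 (5.0% to 35.0%) with the carbonic anhydrase gene (0% to 5.53%). The mean of rca1 was above that of 14.3% of gene models and that of mdh6 above 49.5%. In leaf, where these enzymes are known to be abundant, upstream CG was 82.0% in ppdk1, 62.2% in mdh6, 57.6% in me3 and 85.0% in ssu1, on 20 calls in ssu1. It was 24.8% in rca1, 14.7% in pep1, 11.1% in ssu2 and 1.0% in the carbonic anhydrase gene.

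The 10-day endosperm set the highest upstream values of 3 of the genes with low levels. Upstream CG of pep1 was 35.0% at day 10 (95% interval 29.3% to 41.1%) and 4.98% to 10.6% in the other endosperm stages. That of ssu2 was 39.9% (34.7% to 45.4%) at day 10 and at most 21.4% at the other stages. That of the carbonic anhydrase gene was 5.53% at day 10 and at most 2.53% at the others. In ssu1 the 10-day value was the lowest instead, at 7.84% in upstream CG and 4.17% in upstream CHG. Since this library also led the upstream CG levels of 38.5% of the genes with a clear leader, the part of the library in these values was not tested.

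**Figure D4:**
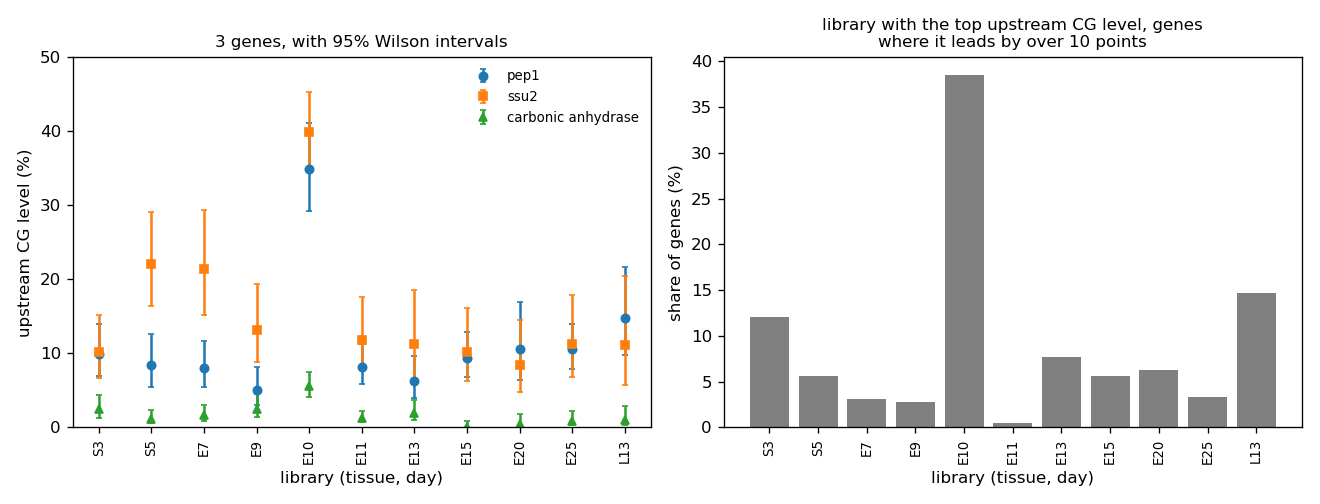
Left, upstream CG level in percent (vertical axis) of pep1, ssu2 and the carbonic anhydrase gene in each library (horizontal axis), with 95% Wilson intervals; right, share in percent of 3288 genes in which each library has the top upstream CG level, among genes where it leads by over 10 percentage points. The 10-day endosperm is highest for all 3 genes and leads at 38.5% of the 3288 genes.

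Counted over the 47 tests, 4 passed for whole seed against endosperm, all higher in seed, where 5.77% of all tests over all genes passed. For leaf against endosperm 3 passed, all of the carbonic anhydrase gene, against 1.59% of all tests, and for leaf against whole seed 1 passed, against 0.222%. For the trend with day 0 passed by limma and 0 by the quasi-binomial model, with 6 at an unadjusted p under 0.05 and 0.345% of all tests passing. The leaf lay above all 10 other libraries in 8 of the 47 tests, and over all genes in 18.7%, a share close to that of these genes. It lay below all 10 in 3 of the 47, against 5.85%. Both seed libraries were above all 8 endosperm libraries in 6 of the 47, against 15.1%, and below all 8 in 0, against 1.09%. In upstream CHG the seed difference was above 0 in 7 of 8 genes with a median of 2.97 percentage points, while it was above 0 in 86.4% of all genes with a median of 8.67.

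Other genes of the pathway, 29 in 3 lists matched by RefSeq name, gave few tests past the threshold. Of 41 tests on 7 relatives of the C4 enzymes, 2 passed for seed against endosperm, both higher in seed. They were upstream CHG of me2, a malic enzyme gene (GRMZM2G122479, 84.0% in seed and 65.2% in endosperm, limma adjusted p = 0.0211), and of pep7, a phosphoenolpyruvate carboxylase gene (GRMZM2G069542, 80.7% and 65.0%, limma adjusted p = 0.0175). For leaf against endosperm 1 passed, pep7 again, at 85.7% in leaf (limma adjusted p = 0.0426). In upstream CHG 14.7% of all genes passed for seed and 2.79% for leaf.

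Of 23 tests on 4 genes of rubisco assembly and the Calvin cycle, 2 passed for seed and 0 for leaf by limma against endosperm (4 at an unadjusted p under 0.05 for leaf). Both were of bsd2, which encodes a chaperone of rubisco assembly (GRMZM2G062788). Its upstream CHG was 85.1% in seed and 69.0% in endosperm (limma adjusted p = 0.0437), and its body CHH was 6.13% and 3.66% (limma adjusted p = 0.0199). The body of bsd2 had a CG level of 80.8% in seed and 80.9% in endosperm, while the highest mean body CG level of the 8 genes was the 21.5% of pep1. Of the 18 genes of the light reactions 15 could be tested, and of their 78 tests 1 passed for seed against endosperm, body CHH of the leaf ferredoxin-NADP reductase gene L-FNRII (GRMZM2G059083, 2.56% and 0.998%, limma adjusted p = 0.0271). For leaf against endosperm 1 passed, upstream CHH of the ferredoxin gene fdx5 (GRMZM2G122327, 8.16% in leaf and 1.05% in endosperm, limma adjusted p = 0.00629). It also passed for leaf against whole seed (limma adjusted p = 0.0274), which shares the leaf library. The level of fdx5 there was 0% in 3-day seed and in 13- and 15-day endosperm, and its call numbers are not given here. In these measures 5.42% of all genes passed for body CHH of seed against endosperm, 2.15% for upstream CHH of leaf against endosperm and 0.344% for upstream CHH of leaf against whole seed. For the trend with day the 3 lists had 0 tests past the threshold by limma, and 3, 1 and 4 tests in turn at an unadjusted p under 0.05.

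Patterns most like those of the 8 genes over the 11 libraries were sought among genes with a RefSeq symbol, in the measure that varied most in each gene among those tested. For body CG of the carbonic anhydrase gene the closest of 186 genes was IDP798 (GRMZM2G036050, Pearson r = 0.770). For upstream CG of pep1 the closest of 201 were DAO (GRMZM2G025977, r = 0.966) and bk4 (GRMZM2G168364, r = 0.956), and for upstream CHG of ssu2 CPPS2 (GRMZM2G044481, r = 0.832) and bk4 (r = 0.809) of 197. For upstream CG of rca1 the closest was PHS1 (GRMZM2G100103, r = 0.798), for upstream CG of ppdk1 shbp1 (GRMZM5G814089, r = 0.920), for upstream CHG of me3 pco137813 (GRMZM2G159009, r = 0.795), for upstream CG of mdh6 pht1 (GRMZM2G326707, r = 0.739) and for upstream CHG of ssu1 lw1 (GRMZM2G027059, r = 0.882). These are descriptions over 11 libraries that share depth and library effects, the 10-day library among them.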

How the data were processed

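Methylation was measured by bisulfite sequencing in 11 Mo17 libraries, 101 nt paired-end. The submitters' processing notes name cutadapt, Bismark and Bowtie2. Tool versions, upstream width and genome build: not given in the sources used here. Coordinates are those of the deposited tables. Per the file headers, the authors deposited a count of methylated calls and a level in percent per gene, region and context. The number of calls was recovered as count over level. A whole number lay in the range allowed by rounding for 100.0% of the 800474 values where that range was under 0.1 call. For a count of 0, calls were estimated from that gene's remaining contexts.

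Tests were made with limma 3.58.1 in R 4.3.3 on levels, in 1 fit per region and context over all nuclear genes with at least 10 calls in each library, leaving out CG and CHG means under 1%. Tissue fits used all 11 libraries. The trend was a linear term for day over the 8 endosperm libraries. Adjusted p-values are Benjamini-Hochberg values over all genes. Alternatives were other call minimums, no level filter, genes above 0 everywhere, an arcsine scale, trended and robust moderation, a quasi-binomial model, subtracted library medians, day as a covariate, and leaving out each library. Simulated data with known changes were used to test the main limma fits, and the quasi-binomial model for seed against endosperm in body CHG. The other alternatives were not simulated. Other steps used pandas 2.3.3, numpy 2.4.6, scipy 1.17.1 and matplotlib 3.10.9 under Python 3.11.15.

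The genes and lists were chosen with earlier results of these data known. Named beyond the 8 genes were up to 2 genes per list and comparison, by size of change among those past the threshold, and the 3 most similar genes of each member, of which the first 1 or 2 are given. Lists were to be matched on product descriptions, which the RefSeq table (Zm-B73-REFERENCE-NAM-5.0, used for names only, with all 8 genes matched) does not hold. They were matched on its synonyms instead, and all 29 genes were in the files.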

Additional observations from a re-analysis of the deposited data

Results flagged for a closer look

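Of 47 sets of 8 endosperm levels, 14 were flagged by Dixon's criterion. In these the highest or lowest library was separated from the others by a large part of the range of the group. Chance flags about 1 group in 20 where levels are independent draws from a normal distribution. The 8 libraries differ in age, and all 47 sets come from the same libraries. The rule was not run over all genes, so whether 14 is many for these genes was not tested. Of the 14 flagged values, 6 were the 10-day library. They were the highest values of upstream CG (35.0%) and upstream CHG (28.7%) in pep1, of upstream CG (5.53%), CHG (7.56%) and CHH (2.70%) in the carbonic anhydrase gene, and of upstream CG (39.9%) in ssu2. The 7-day library was highest in body CHG (3.92%) and body CHH (3.65%) of mdh6 and in body CHH of ssu1 (2.84%). The 15-day library was highest in body CHG of ppdk1 (5.04%), body CG of the carbonic anhydrase gene (6.54%) and upstream CHH of ssu1 (11.8%, on 9 of 76 calls). The 25-day library was highest in upstream CHH of mdh6 (5.41%), and the 11-day library was lowest in upstream CHG of ppdk1 (57.0%).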

How the results depend on the processing

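Of the 8 tests that passed, no alternative turned the direction. Of 156 alternative values 137 kept the result past the threshold and 19 did not. CHH of the rca1 body for seed against endosperm, and CG and CHH of the carbonic anhydrase body for leaf against endosperm, passed under every alternative run. For seed against endosperm, 4 tests passed, 2 on the arcsine scale, 2 with library medians subtracted, 1 with day as a covariate and 2 to 5 with 1 library left out (2 without the 3-day seed and 2 without the 5-day seed). For leaf against endosperm, 3 passed, 5 with library medians subtracted and 3 to 4 with 1 library left out. For leaf against whole seed, 1 passed, 0 on the arcsine scale (limma), 0 in the quasi-binomial model, 2 with trended and robust moderation and 1 to 3 with 1 library left out (2 without the 3-day seed, 3 without the 5-day seed). For the trend the count was 0 throughout by limma and the quasi-binomial model, with 6 at an unadjusted p under 0.05. Body CHG of the carbonic anhydrase gene in leaf gave limma adjusted p = 0.0530 on the arcsine scale. Subtracting library medians takes 4.13 percentage points from leaf against endosperm in body CG and 1.03 from seed against endosperm in upstream CHH. It turned body CG of rca1 in leaf to -3.40 (limma adjusted p = 0.0386) and upstream CHH of ssu1 in seed to -0.454, neither of which had passed before. Body CG of ssu1 in leaf also passed then, at -5.54 against -1.41 before. The leaf CG levels of both bodies, 2.47% in rca1 and 0% in ssu1, were below the 4.13 percentage points taken. Without the 15-day library, upstream CHH of ssu1 passed against endosperm for leaf (4.90 percentage points, limma adjusted p = 0.0104) and for seed (2.01, limma adjusted p = 0.0468). Methylated counts in this measure were 0 to 9 per library, and 0 in the 7-, 10-, 11- and 20-day endosperm. The spread left in endosperm was therefore small and near the floor. No paired analysis was possible because each stage was 1 library and only day 13 was sampled in more than 1 tissue (endosperm and leaf). Depth limits upstream ssu1 most, with 7 to 51 CG calls per library.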
